A study of Mus musculus with 663 samples.

Results

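Immediate early genes are switched on within minutes of a stimulus, from proteins already present in the cell and without new protein synthesis. Growth factors, stretch, injury, heat and enzymatic digestion of a tissue act through MAP kinases, serum response factor and CREB to start their transcription, and most of the transcripts are short-lived. In single-cell studies their transcripts are therefore read with care, because cells are digested and sorted before lysis. Described here are 10 such genes of the 43320 gene names used from the deposited table, taken as a fixed list of names: Fos, Fosb, Jun, Junb and Jund, which encode subunits of the AP-1 transcription factor; Egr1, Atf3 and Klf6, which encode other transcription factors; Ier2, which encodes a nuclear protein of the immediate early class; and Dusp1, which encodes a phosphatase that inactivates MAP kinases.

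The 10 genes were followed in 662 single cells from mouse gonads labelled XX, at the embryonic days E10.5 (71 cells), E11.5 (106), E12.5 (captures of 53, 53 and 57), E13.5 (106) and E16.5 (95) and on postnatal day 6 (P6, 121). Every animal was of mixed background and carried an eGFP reporter of Nr5a1, the gene of a transcription factor that marks the somatic lineage of the gonad. According to the labels, gonads of every stage went through the same short trypsin/EDTA digestion at 37 °C, and live eGFP-positive cells were sorted and captured on C1 microfluidic chips. No undissociated sample is among the data, so transcripts made in the animal and transcripts made during digestion, sorting and capture cannot be told apart. Sorting also limits the cells to those with the reporter. The deposited values carried no unit name and were taken as RPKM, reads scaled to the length of the gene and the size of the library. On that reading levels of different genes can be compared, except where reads of overlapping genes or close copies cannot be told apart.

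The replicate was the capture, 1 chip run of 40 to 71 cells; E10.5 had 1 capture, E12.5 had 3 and each other stage had 2. Depth was estimated in each cell from the most frequent product of value and annotated gene length, taken as the worth of 1 read. The estimate had a median of 1890000 to 3200000 reads per cell in 11 captures, with a median of 3640 to 7976 detected genes. The second E12.5 capture stood apart: its median was 147000 reads by the same estimate, and 40 of its 53 cells held a Y-linked transcript at 1 RPKM or more, against 1 cell in all other captures together, which goes against its XX label. Results that rest on it are given with and without it. Sequencing was in 2 series. The second held E16.5, P6 and the third E12.5 capture, and the first held all others. Captures of 1 stage are not stated to come from separate litters, so p-values cover only differences between chip runs, which can be technical.

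Sequence upstream of the start sites is shown for Fos, Fosb, Jun and Dusp1, members with high coexpression and, for Dusp1, the feedback inhibitor of the pathway. RefSeq promoters in the build GRCm38.p6 were at hand for 8 of the 10 genes. The 250 bases before the start are printed 5′ to 3′ on the gene's strand, with matches on either strand to the 5-base core of the CREB-binding cyclic AMP response element (CRE), TGACG, and to the full CRE, TGACGTCA, in capitals.
Fos, chr12:85473640-85473889, plus strand: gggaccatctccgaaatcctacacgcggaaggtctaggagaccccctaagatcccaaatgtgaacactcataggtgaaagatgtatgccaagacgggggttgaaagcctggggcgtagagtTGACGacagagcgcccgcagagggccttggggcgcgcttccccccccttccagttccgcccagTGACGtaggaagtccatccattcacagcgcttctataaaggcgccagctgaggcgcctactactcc
Fosb, chr7:19310046-19310295, minus strand: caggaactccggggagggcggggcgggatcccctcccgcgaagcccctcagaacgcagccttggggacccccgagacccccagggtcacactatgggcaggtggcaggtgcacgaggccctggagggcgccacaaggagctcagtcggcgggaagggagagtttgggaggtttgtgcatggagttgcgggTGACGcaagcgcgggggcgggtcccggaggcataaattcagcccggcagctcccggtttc
Jun, chr4:95052223-95052472, minus strand: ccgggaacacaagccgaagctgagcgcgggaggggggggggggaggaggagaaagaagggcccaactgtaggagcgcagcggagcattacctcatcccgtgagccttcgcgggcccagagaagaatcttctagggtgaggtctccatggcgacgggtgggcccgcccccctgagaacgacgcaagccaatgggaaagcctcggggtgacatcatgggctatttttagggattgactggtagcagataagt
Dusp1, chr17:26508473-26508722, minus strand: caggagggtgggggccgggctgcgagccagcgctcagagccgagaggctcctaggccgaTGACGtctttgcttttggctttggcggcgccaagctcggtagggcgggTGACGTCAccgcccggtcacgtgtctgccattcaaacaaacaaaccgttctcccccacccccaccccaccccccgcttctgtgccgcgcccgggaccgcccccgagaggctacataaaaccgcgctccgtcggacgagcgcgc

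The core motif lay in the upstream window of 5 of the 8 genes (Fos, Fosb, Junb, Atf3 and Dusp1), against 17.8% of all 32851 promoters of the table. The Fos window held it at positions -129 to -125 and -66 to -62 from the start, and the Fosb window at -60 to -56. The full CRE lay at -143 to -136 in Dusp1 and in 1.55% of all promoters; its letters contain the core on both strands, so these matches overlap. A match to the Egr site GCGNGGGCG lay at -50 to -42 in Fosb (4.7% of all promoters), and a TATAAA match at -33 to -28 in Fos (12.4%). No match to the AP-1 site TGANTCA or to the CArG box of serum response factor lay in these 8 windows. The shares of all promoters with a match were 6.75% and 1.47%. Egr1 and Ier2 had no window, and sequence farther upstream was not searched for any gene. The lack of a match therefore holds for these windows only and does not show that the genes lack such sites. Matches are letters in a window and not measured binding.

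Fos and Egr1 were the highest of the 10 genes per length. Fos, on chromosome 12 (85473890 to 85477273, plus strand, GRCm38, GENCODE vM21), had a median over the 12 captures of 503.9 RPKM. Its mean per capture was 369 RPKM in the E10.5 capture, 330.3 and 291 in those of E11.5, 264, 833 and 190.3 at E12.5, 507 and 529.9 at E13.5, 716 and 786 at E16.5, and 827 and 501 at P6. Without the second E12.5 capture, the E12.5 values lay below those of every other stage and all E13.5, E16.5 and P6 values lay above those of E10.5 to E12.5. With it, the highest value of the series was at E12.5.

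Egr1 (chromosome 18, 34859823 to 34864984, plus strand) encodes a zinc-finger transcription factor of the immediate response to growth factors. Its mean was 219.9 RPKM in the E10.5 capture, 382 and 269.6 in those of E11.5, 206, 113.5 and 246 at E12.5, 487 and 729 at E13.5, 655 and 629.7 at E16.5, and 877 and 615 at P6. All 6 captures from E13.5 onwards lay above all 6 earlier ones. Egr1 had its lowest mean in the second E12.5 capture, the one in which Fos, Fosb, Jun, Jund, Ier2, Dusp1 and Klf6 had their highest.

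Jun (chromosome 4, 95049034 to 95052222, minus strand), the main dimer partner of Fos in AP-1, had a mean of 61.8 RPKM in the E10.5 capture, 55.1 and 53.7 in those of E11.5, 51.8, 586 and 43.4 at E12.5, 59.6 and 88.7 at E13.5, 111.6 and 76.6 at E16.5, and 188 and 115.5 at P6. In the second E12.5 capture it stood above the 11 others, which spanned 43.4 to 188 RPKM. Fosb (chromosome 7, 19302696 to 19310051, minus strand), a paralog of Fos, had means of 12.49 to 57.9 RPKM in the same 11 captures and 84.97 RPKM in the second E12.5 capture.

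Junb and Jund (both on chromosome 8) were the lowest of the 10. Junb (84974484 to 84978718, minus strand) had a mean of 1.76 RPKM in the E10.5 capture, 1.94 and 3.75 in those of E11.5, 5.75, 4.59 and 5.88 at E12.5, 2.50 and 8.26 at E13.5, 33.01 and 18.3 at E16.5, and 26.8 and 18.9 at P6. The 4 captures of E16.5 and P6 lay above the 8 earlier ones. Jund (70698949 to 70700616, plus strand), the AP-1 subunit that many tissues express without a stimulus, had means of 1.29 to 5.26 RPKM in 11 captures and 53.8 RPKM in the second E12.5 capture.

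Ier2 (chromosome 8, 84661331 to 84662852, minus strand) had a mean of 34.3 RPKM in the E10.5 capture, 46.6 and 64.5 in those of E11.5, 36.2, 159.3 and 73.2 at E12.5, 69.3 and 93.7 at E13.5, 153.1 and 108.5 at E16.5, and 143.2 and 149.8 at P6. Its E16.5 and P6 captures lay above those of the other stages, apart from the second E12.5 capture. Atf3 (chromosome 1, 191170296 to 191218039, minus strand), a stress-induced member of the ATF/CREB family, had a mean of 50.4 RPKM in the E10.5 capture, 76.1 and 60.7 in those of E11.5, 23.95, 140.2 and 13.2 at E12.5, 59.7 and 217 at E13.5, 88.7 and 108.8 at E16.5, and 29.8 and 17.97 at P6. Both P6 captures lay below both E16.5 captures.

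Dusp1 (chromosome 17, 26505590 to 26562128, minus strand) had a mean of 97.6 RPKM in the E10.5 capture, 72.8 and 76.8 in those of E11.5, 31.5, 276 and 37.6 at E12.5, 60.8 and 114.8 at E13.5, 37.6 and 157.7 at E16.5, and 55.7 and 21.5 at P6. The E16.5 captures lay on either side of every E10.5, E11.5 and E13.5 capture. Klf6 (chromosome 13, 5861482 to 5870394, plus strand), a Krüppel-like factor, had means of 35.8 to 122.4 RPKM in 11 captures and 255 RPKM in the second E12.5 capture, where 1 cell reached 7231 RPKM. By the median over 12 captures the order of the levels was Fos (503.9 RPKM), Egr1 (435), Ier2 (83.4), Jun (69.2), Dusp1 (66.8), Atf3 (60.2), Klf6 (57.05), Fosb (29.5), Junb (5.82) and Jund (2.49). The 5 genes between Ier2 and Klf6 overlapped over captures, as did Fos and Egr1. Strand is not stated, and annotated genes on the opposite strand overlap exons of Jun (Junos), Junb (Prdx2), Jund (Gm11175) and Dusp1 (Ergic1), so their reads cannot be told apart there.

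**Figure D1:**
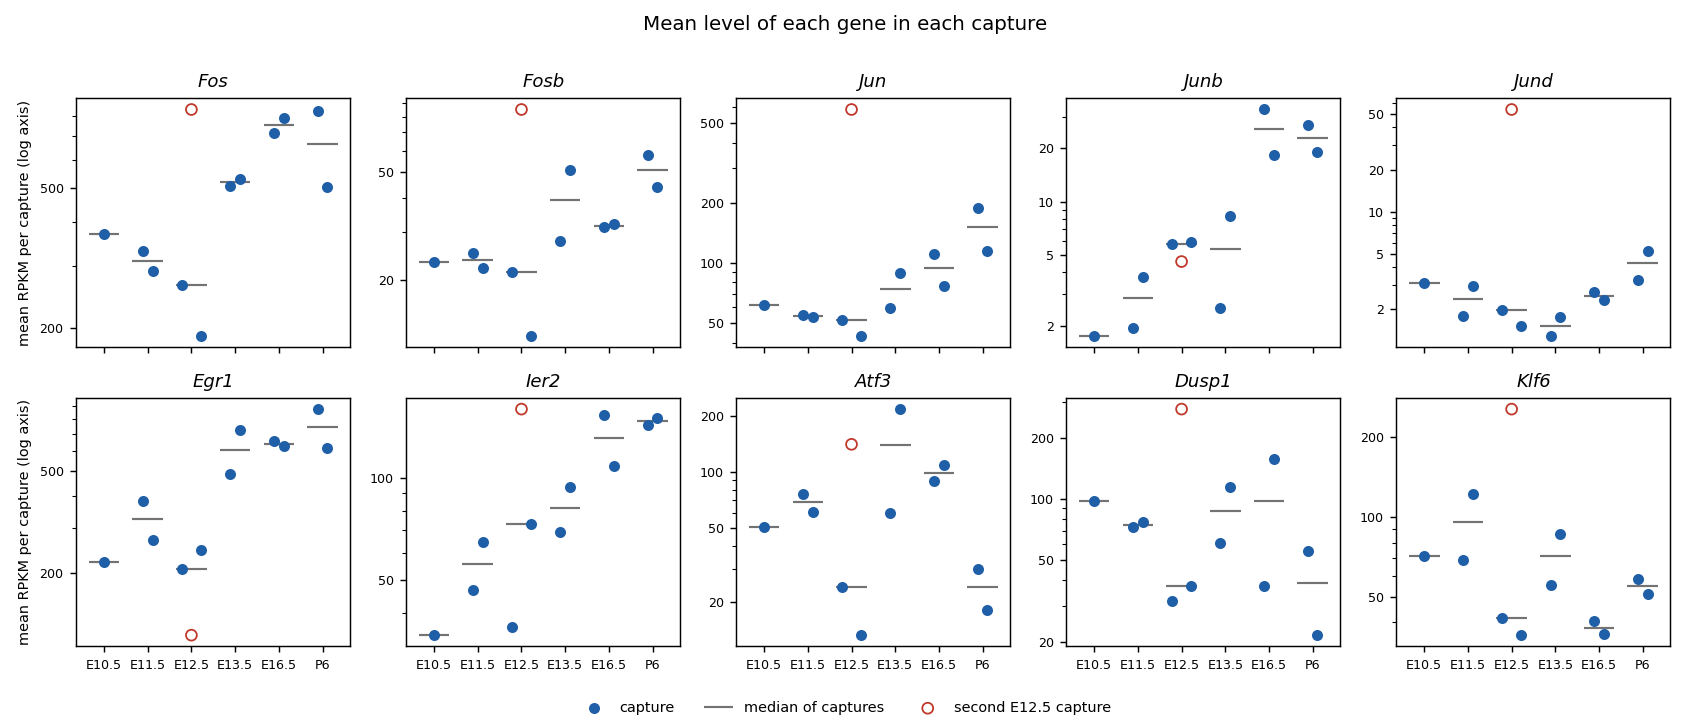
Mean RPKM of each gene in each capture (log axis), by stage; filled points are captures, the open point is the second E12.5 capture and the grey line is the median of a stage's captures. Egr1 from E13.5 onwards lies between 487 and 877 RPKM, above every earlier capture, and Jun and Jund in the second E12.5 capture stand far above the rest.

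The cells of the second E12.5 capture were split by whether a Y-linked transcript was detected. Fos averaged 991 RPKM in the 40 cells with a Y-linked transcript and 345 RPKM in the 13 others. Jun averaged 511 RPKM in the 40 cells and 817 RPKM in the 13 others. Ier2 was alike, with 158.6 RPKM in the 40 cells and 161.8 RPKM in the 13 others, and Egr1 and Dusp1 were close (108.98 and 264 RPKM in the 40 cells, 127.5 and 315 RPKM in the 13 others). Klf6 averaged 125.2 RPKM in the 40 cells and 656 RPKM in the 13 others, but the 13 include the cell at 7231 RPKM, and the medians run the other way, 78.998 RPKM in the 40 cells and 59.1 RPKM in the 13 others. In both groups of cells Jun was above its mean in every other capture. The 13 cells had a median of 2535 detected genes, against 4509.5 in the 40 cells, so the split goes with depth, whose part in these differences was not tested. A Y-linked transcript can be missed at low depth, so the 13 are not shown to be another kind of cell.

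None of the 10 genes passed the test between any consecutive stages. The test, limma on log2(mean RPKM + 1) of the captures with stage and sequencing series as terms, was adjusted by Benjamini-Hochberg over 19710 genes at 0.05, and all 10 genes were among those tested. For E11.5 against E10.5, where 0.969% of all genes were called, 0 of the 10 genes were called (0 at an unadjusted p under 0.05, against 5.02% of all genes), and their median log2 change was 0.19 against 0 over all genes. For E12.5 against E11.5, where 0% of all genes were called, 0 of 10 were called (1 at an unadjusted p under 0.05, against 8.06% of all genes), with a median of 0.53 against -0.03 over all genes. That median rested on the second E12.5 capture. Without it the median was -0.41 and 9 of the 10 values were negative, with Fos at -0.23, Jun at -0.07, Dusp1 at -1.22, Klf6 at -1.12 and Atf3 at -1.47. Without the first E12.5 capture, which leaves the second to stand for E12.5 in the first series, 3 of the 10 were called (Fos, 1.42, adjusted p = 0.0488; Jun, 3.41, adjusted p = 0.0101; and Jund, 4.05, adjusted p = 0.0109).

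Egr1 came closest to a call. At E13.5, where it had 487 and 729 RPKM, against 206, 113.5 and 246 RPKM at E12.5, its log2 change was 1.96 ± 0.39 (SE; limma p = 0.00148, adjusted p = 0.329). This comparison had 0% of genes called, 0 of the 10 called and 1 of the 10 at an unadjusted p under 0.05 (8.26% of all genes), with a median of -0.14 against 0.10 over all genes. When the second E12.5 capture was left out, the log2 change of Egr1 was 1.53 (adjusted p = 0.262), and that of Fos was 0.97 (adjusted p = 0.460), against 0.14 with it. The median of the 10 genes without it was 0.88, and 8 of the 10 were positive. Without the first E12.5 capture 3 of the 10 were called, Egr1 (2.38, adjusted p = 0.0192), Jun (-2.99, adjusted p = 0.0149) and Jund (-4.45, adjusted p = 0.00880). Within the first sequencing series, the E13.5 captures had 507 and 529.9 RPKM of Fos, against 264 RPKM in the first E12.5 capture. At E12.5 against E11.5, Egr1 had a log2 change of -1.07 ± 0.39 (adjusted p = 0.589).

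The comparison of E16.5 with E13.5 crosses the sequencing series and is joined by the E12.5 captures alone. Of all genes, 0.528% were called, 0 of the 10 genes were called (0 at an unadjusted p under 0.05, against 7.27% of all genes), and 9 of the 10 values were positive, with a median of 1.65 against -0.15 over all genes. Junb had a log2 change of 2.01 ± 0.93 (adjusted p = 0.734) and Fos of 1.83 ± 0.83 (adjusted p = 0.721). The median was 0.54 when the second E12.5 capture was left out and 6 of the 10 were positive; Junb was at 2.14, while Jun was 0.59 in place of 2.33, and Dusp1, Ier2, Egr1 and Klf6 were negative. Within the second series, E16.5 captures had 33.01 and 18.3 RPKM of Junb, against 5.88 RPKM in the third E12.5 capture; for Egr1 they had 655 and 629.7 RPKM against 246 RPKM. Without the first E12.5 capture, Fos (2.66, adjusted p = 0.0345), Jun (4.07, adjusted p = 0.0269) and Jund (4.92, adjusted p = 0.0280) were called.

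For P6 against E16.5, 0.289% of all genes were called, 0 of the 10 genes were called (0 at an unadjusted p under 0.05, against 8.95% of all genes), and the median was 0.19 against 0 over all genes. Atf3 had the largest change, -2.04 ± 0.88 (adjusted p = 0.570). In the overall test of stage, 1.37% of all genes and 0 of the 10 were called, with 1 at an unadjusted p under 0.05 (11.7% of all genes). Egr1 had the lowest p (0.00900, adjusted p = 0.186). It was called (adjusted p = 0.0290) when the mean over cells of log2(RPKM + 1) took the place of the log2 of the mean, a measure that weighs the share of cells with the transcript more. Without the first E12.5 capture, Fos, Jun and Jund were called in the overall test.

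How the spread between captures compared with that between stages turned on the second E12.5 capture. With all captures, the pooled SD of captures within a stage was 0.43 on the log2 scale for Egr1 and 0.54 for Junb, against SDs of stage means of 0.86 and 1.35. For Jund, Dusp1 and Jun the capture SD (1.46, 1.24 and 1.24) exceeded the SD of stage means (0.55, 0.51 and 0.53). For Fosb and Klf6 it was also the larger (0.84 and 0.95, against 0.42 and 0.43), while Fos, Ier2 and Atf3 had SDs of like size. Without the second E12.5 capture, the SD of stage means exceeded the capture SD for all of the 10 genes but Dusp1 (stage SD 0.65, capture SD 0.83). It was 0.66 for Fos, 0.59 for Jun and 0.38 for Jund, against capture SDs of 0.28, 0.34 and 0.26. Of the variance between single cells, 7.12% (Fosb) to 23.5% (Jund) lay between captures, so most of it lay between cells of 1 capture. Leaving out the second E12.5 capture gave 4.18% for Jund in place of 23.5%, and 8.67% for Jun in place of 17.8%.

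Fos, Egr1 and Jun were present in most cells of every capture. The share of cells at 1 RPKM or more was 73.7% to 100% for Fos, 68.4% to 100% for Egr1 and 75% to 98.2% for Jun. Among genes that averaged 10 RPKM or more in a capture, the median share was 30.3% to 73.2%. In the second E12.5 capture, with its few reads, 1 RPKM was close to any value above 0. Jund had 73.6% of its cells at 1 RPKM or more and 73.6% above 0, against 54.9% and 90.1% in the E10.5 capture. Shares of the second E12.5 capture are therefore not on a par with those of the others. At E13.5 both captures, 53 cells each, had Fos and Egr1 in 100% of cells (exact 95% interval for the counting error of 1 capture, 93.3% to 100%). The lowest shares of both genes were in the third E12.5 capture. At P6, Fos was detected in 90.9% and 77.3% of cells and Egr1 in 85.5% and 83.3%.

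The shares of Junb and Klf6 varied more between captures. Junb was detected in 15.5% of cells in the E10.5 capture, 9.43% and 15.1% in those of E11.5, 18.9%, 22.6% and 15.8% at E12.5, 26.4% and 32.1% at E13.5, 58.2% and 30% at E16.5, and 54.5% and 33.3% at P6. Klf6 was detected in 78.9% of cells in the E10.5 capture, 90.6% and 84.9% in those of E11.5, 52.8%, 88.7% and 40.4% at E12.5, 60.4% and 77.4% at E13.5, 40% and 22.5% at E16.5, and 50.9% and 33.3% at P6. The Junb shares at E16.5 and P6 were above those of E10.5 to E12.5, and the second E13.5 capture lay among them. The Klf6 shares at E10.5 and E11.5 were above those of E16.5 and P6, with E12.5 and E13.5 captures in between or among them. Median detected genes per cell were also lower at E16.5 and P6 (3640 to 4998) than at E10.5 and E11.5 (6505 to 7976), and the part of this in the shares of Klf6 was not tested.

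Atf3 was carried by few cells at P6. It was detected in 36.6% of cells in the E10.5 capture, 45.3% and 56.6% in those of E11.5, 22.6%, 67.9% and 10.53% at E12.5, 33.96% and 64.2% at E13.5, 38.2% and 20% at E16.5, and 9.09% and 3.03% at P6. In the second P6 capture 2 of 66 cells held it, and 1 of them reached 1133 RPKM. The 10% of cells with the highest values held 99.9% and 100% of the summed Atf3 signal in the P6 captures, against 73.2% and 90.9% at E16.5 and 51.3% to 65.4% at E11.5. The signal was as concentrated in the first and the third E12.5 capture, with 97.03% and 99.9%. In the P6 and the third E12.5 captures, Atf3 was detected in 5, 2 and 6 cells. The top 10% there was 6, 7 and 6 cells, so these shares of the signal follow from the detection shares. The Fos signal was spread more evenly, with 28.9% to 49.7% in the top 10% of cells over all captures.

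**Figure D2:**
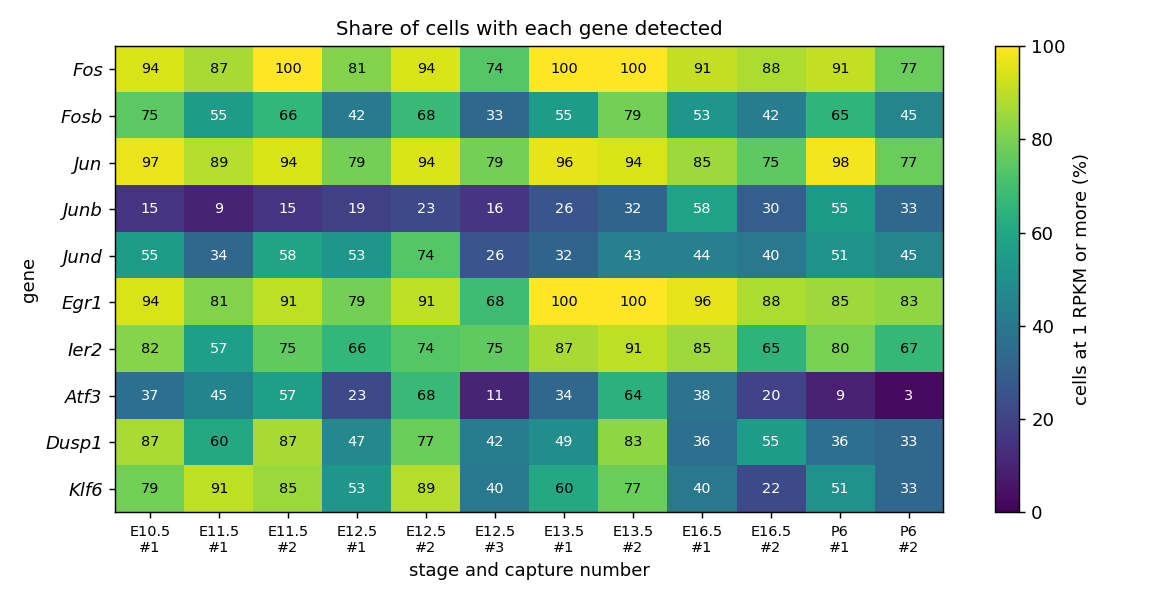
Share of cells at 1 RPKM or more (%), with genes in rows and captures in columns ordered by stage (# is the capture number). Fos and Egr1 reach 100% in both E13.5 captures, and Atf3 is at 9.09% and 3.03% in the P6 captures.

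Cell-to-cell spread of Fos and Egr1 was narrowest in the E13.5 captures. The SD of log2(RPKM + 1) over cells for Fos was 1.53 and 1.35 in the E13.5 captures, and 3.46 and 4.02 in the P6 captures. For Egr1 it was 1.59 and 1.87 at E13.5 and 3.47 and 3.78 at P6. Such wide spread was not particular to P6, since Egr1 had 3.82 in the third E12.5 and 3.62 in the first E11.5 capture, and Fos had 3.51 to 3.57 in the first and the third E12.5 and the second E16.5 capture. Among genes that averaged 10 RPKM or more in a capture, the median SD was 2.35 in both E13.5 captures and 2.42 and 2.41 at P6. At E13.5, 6.65% and 2.03% of those genes had a lower SD than Fos, while at P6 96.9% and 99.4% had. In the second P6 capture the median of all cells was 143.9 RPKM for Fos and that of cells with Fos detected was 299 RPKM.

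Cells high in 1 of the genes tended to be high in the others. Spearman's rho across the cells of a capture, over the 45 pairs of the 10 genes, had a median of 0.160 to 0.311 per capture. Among all pairs of the 3834 genes at 1 RPKM or more in at least 20% of cells of every capture, the median was 0.0272 to 0.103. The 90th percentile of those pairs was 0.214 to 0.309, above the median of the 45 pairs in most captures. Of the 10 genes, 8 were among the 3834. Of the 45 pairs, 35 to 45 were above 0 per capture. These values are descriptions, since cells of 1 capture share their chip and genes share the depth of their cell. After a linear fit on the log2 number of detected genes was removed, the median of the 45 pairs per capture was 0.124 to 0.282. That fit was not made for the pairs of the 3834 genes.

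Fos was the gene most tied to the others and Klf6 the least. The pair with the highest median rho was Fos and Egr1 (0.383 over 12 captures, 0.175 to 0.774), followed by Fos and Fosb (0.345) and Fos and Jun (0.327). Fos and Egr1 were highest together in the first P6 capture. The pair with the lowest median was Egr1 and Klf6 (0.104). The median rho of each gene with the mean of the 9 others was 0.496 for Fos, 0.475 for Jun, 0.413 for Ier2, 0.397 for Fosb, 0.387 for Egr1, 0.383 for Junb, 0.363 for Dusp1, 0.347 for Jund, 0.300 for Atf3 and 0.233 for Klf6. Among the genes with printed promoters, Fos, Fosb and Dusp1 hold an exact match to the CRE core and Jun does not. Jun had a median rho of 0.327 with Fos, 0.311 with Fosb and 0.320 with Dusp1. The pairs without Jun had 0.345 (Fos and Fosb), 0.300 (Fos and Dusp1) and 0.209 (Fosb and Dusp1). The part of the motif in coexpression was not tested.

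**Figure D3:**
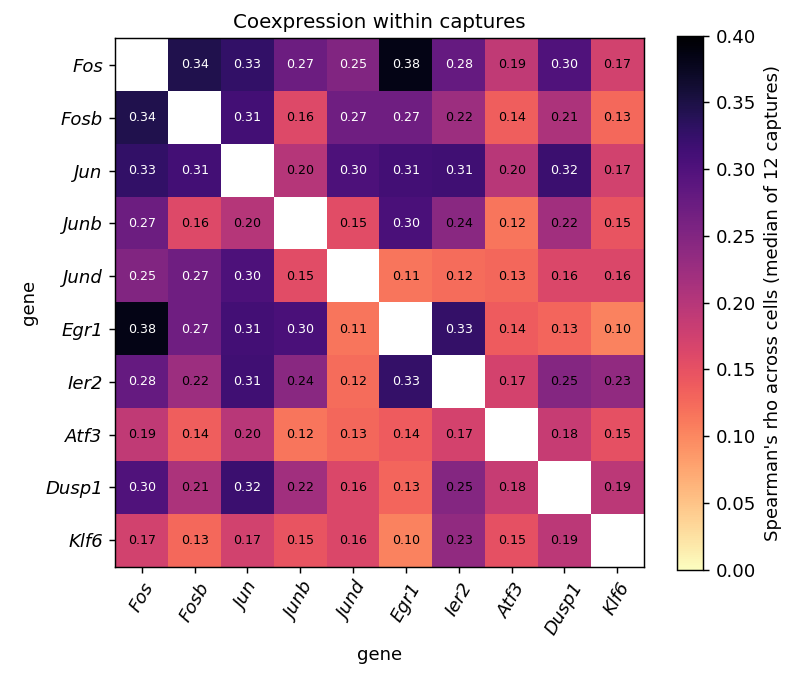
Spearman's rho across cells within a capture for each pair of the 10 genes, given as the median of the 12 captures. Fos and Egr1 (0.38) are the darkest pair, and the rows of Atf3 and Klf6 are the palest.

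The genes whose pattern across cells was most like that of the 10 were largely from a list of other immediate early genes. Btg2, which encodes an antiproliferative protein of the early response, had a median rho of 0.540 over 12 captures (0.311 to 0.741) with the mean log2 value of the 10 genes. It was followed by Zfp36 (0.392), which encodes an RNA-binding protein that destabilises transcripts, Ppp1r15a (0.353), a regulatory subunit of the stress response phosphatase, Klf4 (0.309), Rhob (0.308), Cyr61 (0.303), Actb (0.277), Id1 (0.276) and Dnajb1 (0.259). Of these genes, 7 were on the list of 45 other immediate early genes, Actb was on the housekeeping list and Dnajb1 on the heat shock list. The lists were chosen with earlier results of these data known. Not every gene of the list of 45 ranked high, since Id3 had a median rho of 0.152 and Id2 of 0.0676. That list of 45 had a median rho of 0.609 (0.497 to 0.762) between its mean and the mean of the 10 genes. The 14 heat shock genes had 0.258 (-0.0151 to 0.732) and 10 housekeeping genes 0.195 (-0.221 to 0.622), so genes outside the early response also went with the 10. Means of lists of different size differ in noise, so these values of rho are not strictly on a par.

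The most abundant of the other immediate early genes were Btg2, with 645 RPKM averaged over captures (94.6 to 1831), Id2 with 477 and Id3 with 400.0 RPKM. Of the heat shock list, Hsp90ab1 had 1474 RPKM, Hspa5 299 and Hspa8 117.3 RPKM. The stress-inducible Hspa1a and Hspa1b were listed at 1.51 and 0.968 RPKM. They are near-identical copies, whose reads the authors' counting could have split or dropped, and Gapdh, a housekeeping gene with many close copies, was listed at 4.5 RPKM, so these levels are uncertain. Between stages, 1 of 43 other immediate early genes tested (Fosl1, log2 change -1.31 ± 0.20, adjusted p = 0.0372) and 1 of 14 heat shock genes (Dnajb4, 2.69 ± 0.41, adjusted p = 0.0367) were called, both in limma's test of E11.5 against E10.5. In that comparison 0.969% of all genes were called, and E10.5 had 1 capture. Fosl1 lay near the floor, with 0.182 RPKM averaged over captures. Its highest capture mean was 1.47 RPKM, little above the filter of 1 RPKM in 1 capture. None of 18 genes of MAP kinase and serum response factor signalling was called at any step by limma (0 to 3 at an unadjusted p under 0.05).

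Most cells held most of the 10 genes. The median number of the 10 at 1 RPKM or more was 6 over the 662 cells; 30 cells held all 10 and 5 held none. Cells with fewer than 5 of the 10 genes made up 20.7% of the 662 (exact 95% interval for counting error 17.7% to 23.98%). By capture the share was 8.45% in the E10.5 capture, 22.6% and 5.66% in those of E11.5, 35.8%, 7.55% and 52.6% at E12.5, 11.3% and 3.77% at E13.5, 18.2% and 30% at E16.5, and 14.5% and 37.9% at P6. The E12.5 captures held both the highest share and 1 of the lower ones. The lower one, 7.55%, was that of the second E12.5 capture. There 1 RPKM was close to any value above 0, so this share is not on a par with the others. The 5 cells with none came from E16.5 (3 cells) and P6 (2 cells) and had 1831 to 3106 detected genes, below the medians of their captures.

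Fos and Egr1 were often missing from the same cells. Fos was below 1 RPKM in 69 cells, Egr1 in 79 and both in 33, which is 47.8% of the cells low in Fos and 41.8% of the cells low in Egr1. From the shares of low cells in each capture, 12.7 such cells would be met if the 2 genes were independent within captures. In the second P6 capture there were 7 of these cells (2.50 on that reckoning), and in the third E12.5 capture 6 (4.74). The number of detected genes went with the mean log2 value of the 10 genes to a varying degree, with Spearman's rho of -0.0276 to 0.612 across the cells of a capture. It was highest in the second E16.5 capture (0.612, 40 cells) and the first E12.5 capture (0.488, 53 cells) and near 0 in the third E12.5 capture (-0.0184, 57 cells), where cells with few of the genes were most common. The part of depth in which cells are low was not tested.

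**Figure D4:**
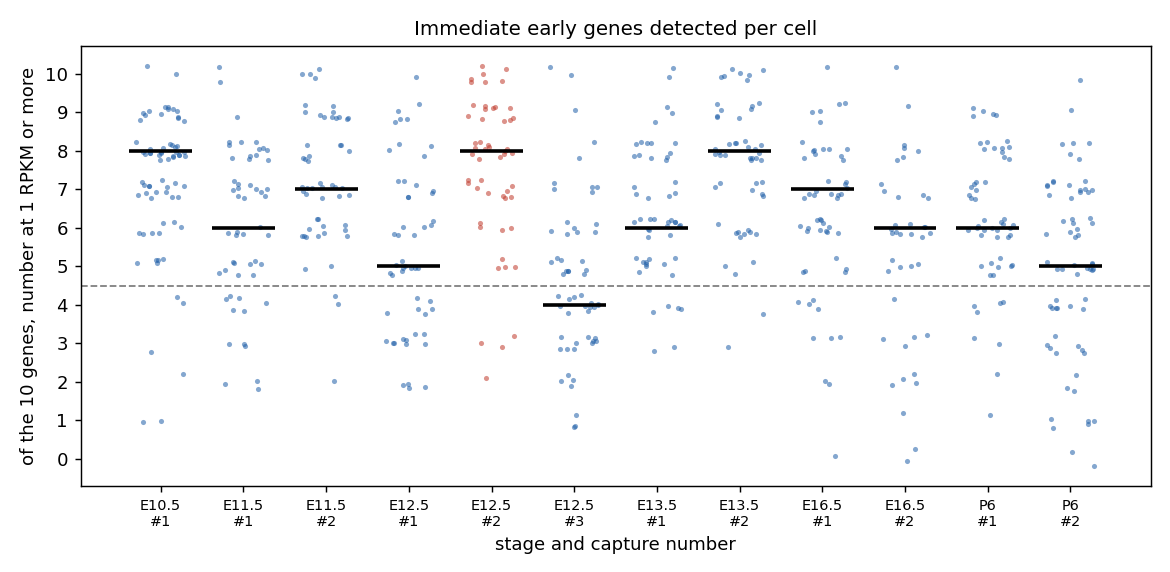
Number of the 10 genes at 1 RPKM or more in each cell (points, jittered), by capture in stage order, with the capture median as a black bar; points below the dashed line are cells with fewer than 5 genes, and the second E12.5 capture is red. The medians run between 4 in the third E12.5 capture and 8 in the E10.5, second E12.5 and second E13.5 captures.

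Levels of the 10 genes were also compared by cell type. Cells with fewer than 5 of the 10 genes were not counted by cell type. Foxl2 encodes a transcription factor of the pregranulosa and granulosa lineage, and Nr2f2 one of the stroma. Cells with Foxl2 and no Nr2f2 at 1 RPKM were compared with cells with Nr2f2 and no Foxl2 inside the 2 captures with at least 5 of each. This leaves 1 residual degree of freedom. The spread in this fit was in effect wholly borrowed across genes, so its p-values do not reflect each gene's own spread between the 2 captures. In limma's fit 0.528% of 14776 genes and 1 of the 10, Atf3, were called, with 2 of the 10 (Atf3 and Dusp1) and 7.05% of all genes at an unadjusted p under 0.05. Atf3 had 0.304 RPKM in 6 Foxl2-positive cells and 129.9 RPKM in 36 Nr2f2-positive cells of the first E16.5 capture. In the second P6 capture it had 0.0337 RPKM in 9 Foxl2-positive cells and 51.5 RPKM in 22 Nr2f2-positive cells. The log2 change was -6.16 ± 1.39 (adjusted p = 0.00394). Atf3 was below the filter of 1 RPKM in the Foxl2-positive cells of both captures. It was therefore tested only through the Nr2f2-positive cells, where it is high. Few cells carry it: Atf3 was detected in 1 of 15 Foxl2-positive and 18 of 58 Nr2f2-positive cells, and at P6 in 0 of 9, which allows a share of up to 33.3%, and 1 of 22. Foxl2-positive cells had the higher median number of detected genes, 5657.5 and 4078, against 4842 and 3413 in Nr2f2-positive cells of the same captures. The call was lost with a marker threshold of 10 RPKM (adjusted p = 0.527), without the filter on low values (0.683) and with the mean of log2 values (0.565).

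Of 40 other immediate early genes tested in that fit, 3 were called, all lower in Foxl2-positive cells. Cyr61, a matrix-associated signalling protein, had a log2 change of -3.37 ± 0.74 (adjusted p = 0.00223), Btg2 of -0.91 ± 0.22 (adjusted p = 0.00882) and Sertad1 of -4.46 ± 1.21 (adjusted p = 0.0449). The Sertad1 change was -6.15 with a pseudocount of 0.1 RPKM and -2.59 with 10 RPKM, so its size depends on the pseudocount. None of 12 heat shock genes was called by limma (0 at an unadjusted p under 0.05), but 3 of 10 housekeeping genes (Actb, Rplp0 and Eef1a1) were, all lower in Foxl2-positive cells. The median log2 change was -0.48 over all genes, -0.46 for the 10 genes and -0.67 for the 40 other immediate early genes. No call of Cyr61, Btg2 or Sertad1 held with a marker threshold of 10 RPKM (limma adjusted p = 0.413, 0.991 and 0.0608), where Btg2 was at 0.011, without the filter on low values (0.683 for each) or with means of log2 values (0.128, 0.977 and 0.874). Over all 6 alternatives the adjusted p was 0.000889 to 0.683 for Cyr61, 4.28e-05 to 0.991 for Btg2 and 0.0289 to 0.874 for Sertad1.

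Foxl2-positive cells were then compared with all other cells of the same capture, an alternative chosen after the data were seen. It took in 7 to 41 Foxl2-positive and 21 to 50 other cells in each of 8 captures from E12.5 onwards, and the second E12.5 capture was not among them. Of 19646 genes 0.00509% were called by limma, and 0 of the 10 were called, with 4 of the 10 at an unadjusted p under 0.05 against 8.43% of all genes. Egr1 was lower in Foxl2-positive cells in 7 of 8 captures, with means over captures of 474 ± 272 RPKM in Foxl2-positive cells and 599.7 ± 262 RPKM in other cells (SD, n = 8 captures), a log2 change of -0.62 ± 0.22 and an adjusted p of 0.477. Atf3 was lower in 6 of 8 captures (-2.28 ± 0.76, adjusted p = 0.460), and Dusp1 in 6 of 8 (-0.99 ± 0.41, adjusted p = 0.557).

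Klf6 went the other way. It averaged 75.3 ± 34.7 RPKM in Foxl2-positive cells and 37.4 ± 20.6 RPKM in other cells (SD, n = 8 captures) and was higher in Foxl2-positive cells in 7 of 8 captures (log2 change 1.12 ± 0.43, adjusted p = 0.523). The captures with the largest differences were the second E16.5 capture, with 113.7 RPKM in 11 Foxl2-positive cells and 6.72 RPKM in 29 others, and the first P6 capture, with 87.4 RPKM in 34 Foxl2-positive cells and 11.8 RPKM in 21 others. Foxl2-positive cells had the higher median number of detected genes in all 8 captures, and the gap was widest in these 2, with 5360 against 4100 and 5339 against 4407. Its part in the Klf6 values was not tested. Jund was also higher in 7 of 8 captures (0.64 ± 0.41, adjusted p = 0.706). Fos, Jun and Ier2 were higher in 3, 4 and 4 of 8 captures, with log2 changes of -0.18, -0.22 and 0.13.

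**Figure D5:**
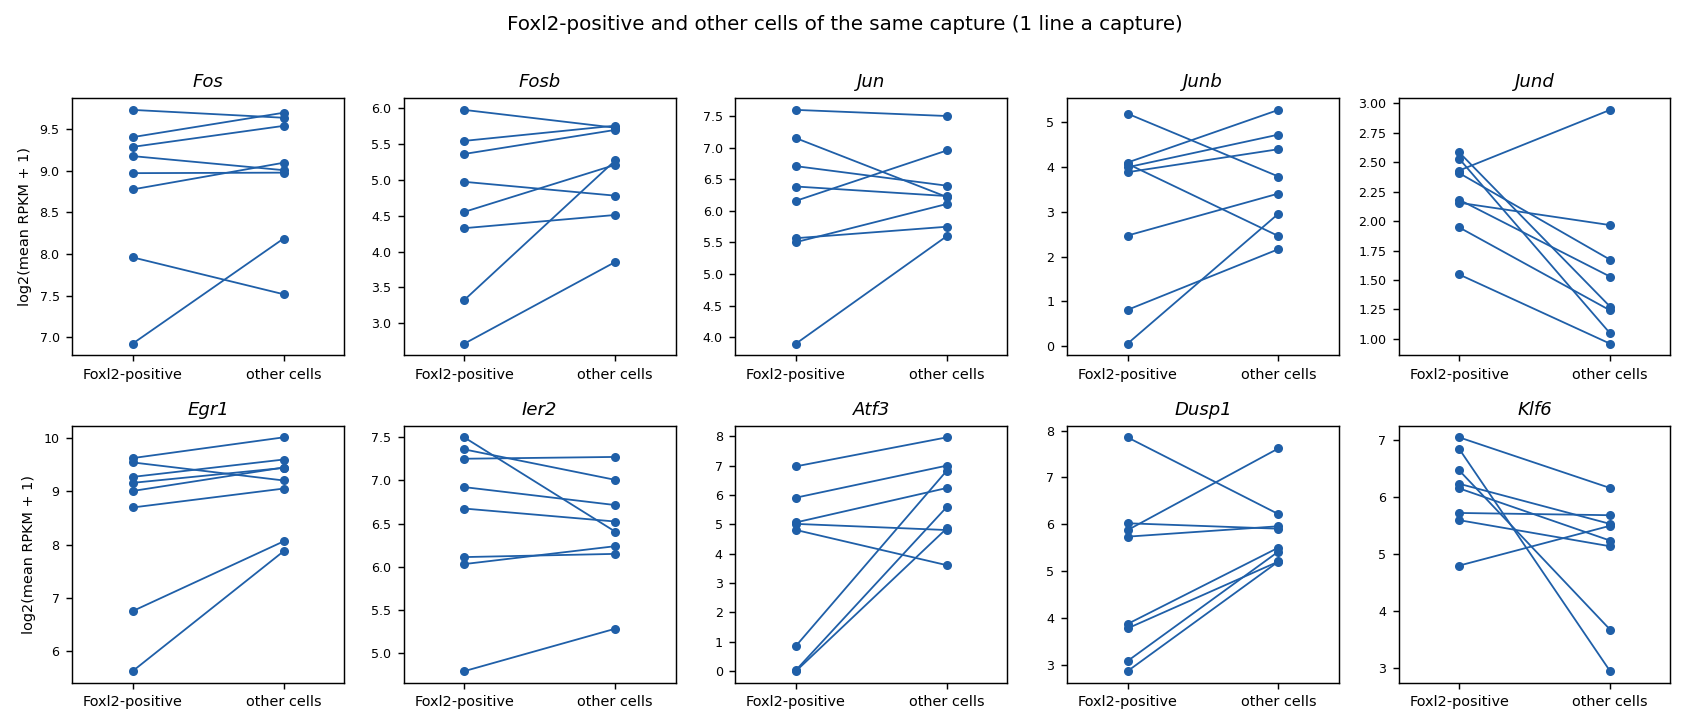
log2(mean RPKM + 1) of each gene in Foxl2-positive cells (left) and the other cells (right) of the same capture, 1 line for each of 8 captures. Egr1 is lower in Foxl2-positive cells in 7 of 8 captures and Klf6 higher in 7 of 8, while the lines of Fos, Jun and Ier2 run both ways.

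Markers of cell types went with the level of the 10 genes in some captures and against it in others, so medians over captures lay near 0. The median rho over captures between the mean of a marker list and the mean of the 10 genes was 0.0130 for 5 gonadal somatic genes, 0.00747 for 6 pregranulosa genes, 0.0724 for 4 granulosa genes, 0.0404 for 6 stroma genes, 0.0671 for 4 surface epithelium genes, 0.146 for 4 endothelium genes and 0.0450 for 4 immune genes. The summed mean level of the endothelium genes was 0.0616 to 13.55 RPKM per capture, and that of the immune genes 1.32 to 7.85 RPKM. In the second E16.5 capture rho was 0.403 for the gonadal somatic, 0.345 for the pregranulosa, 0.409 for the surface epithelium and -0.486 for the stroma genes. In the same capture rho was 0.622 for the housekeeping genes, 0.732 for the heat shock genes and 0.612 for the number of detected genes. The part of depth in the marker values was not tested. In the first P6 capture rho was 0.403 for the stroma and -0.375 for the granulosa genes. In the first E13.5 capture rho was 0.381 for the surface epithelium and 0.372 for the housekeeping genes.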

How the data were processed

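Each sample was 1 cell. The authors' deposited table carried no unit name and was taken as RPKM, as deposited (totals differed between cells). Per the submitters' processing notes the build was GRCm38.p3. For aligner, counting tool, strand and cell filters: not given in the sources used here. Of 43347 names, 27 turned into dates were left out. A repeat library (r = 0.996 with its pair; highest other pair 0.802) was averaged with its pair, leaving 662 cells. Each cell is its own library, so no barcodes are shared; doublets were neither marked nor called. Coordinates came from GENCODE vM21, promoters from RefSeq.

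The 10 genes and the gene lists were chosen with earlier results of these data known. Captures, from the sample titles, were the replicates. limma 3.58.1 (R 4.3.3) was fitted with an intensity trend to log2(mean RPKM + 1) of 12 captures, with stage and sequencing series as terms (5 residual degrees of freedom), over 19710 genes whose mean reached 1 RPKM in 1 capture or more; fold changes on this scale understate those of low genes. E10.5, with 1 capture, took its spread from the other stages. Foxl2 comparisons had the capture as a block (1 and 7 residual degrees of freedom). The fits were tested on simulated data: of 100 genes with a log2 change of 2, P6 against E16.5 recovered 10, and of 100 with a change of 4 it recovered 53; for Foxl2-positive against other cells it was 57 and 93. P-values were adjusted by Benjamini-Hochberg.

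Besides the 10 genes, the text names the 3 most abundant and every called gene of the other immediate early and heat shock lists, and the 10 genes most correlated across cells with the mean of the 10, of which 1 is not reported here; Hspa1a and Hspa1b were chosen after their values were seen. Detection means at least 1 RPKM. Intervals are exact binomial (95%) and limits for a count of 0 allow 3 cells; both cover counting error only, since no molecular identifiers were used. Alternatives were other pseudocounts, filters, scalings, thresholds and each capture left out.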

Additional observations from a re-analysis of the deposited data

How the results depend on the processing

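No paired analysis was possible because capture numbers are names in date order and tie no capture of 1 stage to one of another; the Foxl2 comparisons are within captures. Of 1198 log2 changes of the 10 genes under the alternatives, 1122 kept their sign and their side of the threshold, 64 changed sign, 9 passed the threshold that had not and 3 no longer passed it. The counts of called genes among the 10 stayed at 0 in all 19 alternatives for E11.5 against E10.5, all 20 for P6 against E16.5 and all 16 for Foxl2-positive against other cells. Leaving out captures in turn gave 0 to 3 called genes for E12.5 against E11.5, E13.5 against E12.5, E16.5 against E13.5 and the overall test, with 3 only without the first E12.5 capture. Means of log2 values gave 1 called gene (Egr1) in the overall test. For Foxl2-positive against Nr2f2-positive cells the count was 0 with a marker threshold of 10 RPKM, no filter or means of log2 values, in place of 1. The cause was not tested. Over all genes the alternatives gave 1 to 1003 calls for E11.5 against E10.5 in place of 191, 0 to 1594 for E12.5 against E11.5 and 0 to 1609 for E13.5 against E12.5 in place of 0, 0 to 786 for E16.5 against E13.5 (in place of 0.528% of genes) 19 to 369 for P6 against E16.5 in place of 57, 1 to 1509 in the overall test in place of 271, 0 without a filter for Foxl2-positive against Nr2f2-positive cells in place of 78, and 1 to 79 for Foxl2-positive against other cells in place of 1.

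Signs turned for values that had not passed. For E12.5 against E11.5, leaving out captures gave log2 changes of -1.12 to 1.47 for Klf6, -1.47 to 1.03 for Atf3, -0.23 to 1.42 for Fos, -0.068 to 3.41 for Jun and -1.22 to 1.87 for Dusp1. Dusp1 and Klf6 were at -0.29 and -0.83 with means of log2 values, -0.092 and -0.13 with cells scaled to the same sum, and -0.11 and -0.33 with no series term. For E13.5 against E12.5, Fos ran between -0.68 and 0.97. For E16.5 against E13.5, Ier2 ran between -0.33 and 1.78, Dusp1 between -0.36 and 2.73 and Klf6 between -0.63 and 1.96. With no series term, Egr1 was at 0.11, Dusp1 at -0.11 and Klf6 at -0.84, and with means of log2 values Egr1 was at 0.082. For Foxl2-positive against other cells, Ier2 was at -0.15 with a threshold of 10 RPKM and at -0.0065 to 0.22 with a capture left out. Jun was at 0.014 with at least 10 cells of each kind, and Fos at 0.18 with means of log2 values.

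Cells with fewer than 5 of the 10 genes made up 40.9% when a gene had to reach 10 RPKM, in place of 20.7%, 6.19% with fewer than 3 genes and 21.8% without the second E12.5 capture. The median coexpression over captures was 0.212, and 0.175 to 0.215 under the alternatives. E11.5 against E10.5 could not be fitted without the E10.5 capture, nor E16.5 against E13.5 and the overall test without the third E12.5 capture. For Foxl2 against Nr2f2, 2 settings (any value above 0, at least 10 cells) left fewer than 2 captures, and leaving out a capture left no test. No undissociated sample, 1 to 3 captures a stage and 1 shallow capture with Y-linked transcripts limit every stage comparison.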
